A study of Mus musculus with 6 samples.

Results

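*Six2*, *Six4*, *Six5*, *Eya1*, *Eya2*, *Eya3*, *Eya4*, *Meox1* and *Meox2* are transcription regulators that act upstream of the myogenic program. They were chosen by gene name, as 9 of the 46078 genes in the table of counts, and each name matched a single row. Their RNA was compared between *Hnrnpa2b1* KO and WT C2C12 cells, a mouse muscle precursor line that forms multinucleated myotubes once serum is lowered. The KO myoblasts had been edited with CRISPR-Cas9 and a guide RNA against *Hnrnpa2b1*, which encodes an RNA-binding protein (RBP), and the methods describe independent clonal KO and WT populations. All cultures were differentiated for 2 days by serum withdrawal, with insulin, transferrin and selenium added. The culture methods describe a change from fetal bovine serum to a lower share of horse serum. Total RNA was sequenced from 3 KO and 3 WT libraries, KO1 to KO3 and WT1 to WT3. The sources used here do not say which clone gave each library, so the p-values measure the spread between these libraries.

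Six-family proteins bind DNA through a homeodomain and an adjoining family-specific domain, and their site in muscle promoters is known as the MEF3 site. Eya proteins do not bind DNA themselves. They are recruited by Six-family proteins and act as coactivators and phosphatases, and Dach and Groucho (Tle) proteins act as corepressors at the same sites. Meox1 and Meox2 are homeodomain proteins of the somite, the embryonic tissue that gives rise to skeletal muscle, vertebrae and dermis. In the embryo these families act with Pax3 and upstream of *Myf5* and *Myod1*, and Six-family proteins also control *Myog* and fast-type muscle genes.

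The letters of the MEF3 site, which Six-family proteins are known to bind, were searched on both strands of RefSeq promoter windows (GRCm38.p6, 250 bases before to 50 bases after each transcript start). The 9 letters TCAGGTTTC or their reverse complement occurred in 0.43% of 32851 windows. Among the 6 members with a window they occurred in *Six4*, and among 36 of the partner and downstream genes with a window they occurred in *Myog*. The shorter TCAGGTT, which is contained in the longer motif, occurred in 4.07% of windows, in the same member and in *Myog* and *Mef2c*. Both matches to the longer motif are shown 5′ to 3′ in the direction of the gene, with the matching letters in capitals.
*Myog*: agaggggggcTCAGGTTTCtgtggcgttg
*Six4*: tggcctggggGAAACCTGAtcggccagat
The *Myog* letters lie at chr1:134289920-134289928 on the plus strand, 76 to 84 bases before the RefSeq start and outside the annotated gene. The *Six4* letters, on the reverse complement, lie at chr12:73113336-73113344 on the minus strand of the gene, 91 to 99 bases before that RefSeq start and within an exon and untranslated region of *Six4* in the GENCODE annotation. Binding was not measured, and a match describes letters alone.

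Gene counts summed to 36417517 to 40558740 in the KO libraries and 33605258 to 39134651 in the WT libraries. *Hnrnpa2b1* RNA was present in both genotypes, with 159 to 249 CPM (counts relative to a common library total, with TMM scaling) in KO and 225 to 252 in WT. The log2 fold change, given throughout as KO relative to WT, was −0.23 with a standard error of 0.18 and an adjusted p of 0.381 in edgeR. Loss of the protein cannot be read from these counts, and the paper checked it in the KO clones by immunofluorescence and Western blotting. All 7 skeletal muscle markers were detected in every library, at 96.0 CPM or more. Of these, *Myod1* (log2 fold change 0.99, adjusted p = 0.0141 in edgeR) and *Cdh15* (0.70, adjusted p = 0.0258) were called higher in KO. Over all tested genes 12.1% were called higher. *Myog* (0.06), *Tnnt1* (0.14), *Acta1* (0.11), *Des* (−0.34) and *Ckm* (−0.83) were not called. Markers of other cells were near 0 for the most part, with sums of at most 3.41 CPM for 2 blood genes and 0.244 for 2 neural and glial genes. The sum of 2 epithelial genes was 0.0488 to 2.24 CPM in KO and 0.0914 to 0.162 in WT, with *Cdh1* at 2.21 in KO1. The sum of 3 endothelial genes was 0.112 to 0.435 CPM in KO and 0.868 to 1.75 in WT. Its leading gene *Kdr* fell by 2.15 on the log2 scale (adjusted p = 0.0363 in edgeR). *Kdr* reached the level of the low-count filter in 1 KO and 3 WT libraries, so it was tested through its WT level. The sum of 3 fibro-adipogenic markers lay between 21.2 and 113 CPM in KO and between 14.0 and 24.0 in WT. Of these, *Pi16* rose by 2.45 on the log2 scale (5.04 to 15.8 CPM in KO and 1.36 to 3.54 in WT, adjusted p = 0.0171 in edgeR) and *Pdgfra* by 1.17 (6.32 to 12 CPM and 3.47 to 4.93, adjusted p = 0.0257), each without overlap. *Dcn*, which encodes the matrix protein decorin, was not called (adjusted p = 0.259 in edgeR) and had 90.6 CPM in KO1 and 7.01 to 17.7 in the other libraries. The part of these markers in the members' values was not tested.

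Of the 9 genes, 7 had a count in any library and 6 passed edgeR's filter on low counts. At an adjusted p-value under 0.05 (edgeR's quasi-likelihood test, Benjamini-Hochberg over all 14828 genes tested), *Eya4* and *Meox1* were lower in KO, where 10.6% of all tested genes were called lower. *Six4*, *Six5*, *Eya1* and *Eya3* were not called. DESeq2 called the same 2 members lower, where it called 11.8% of all genes lower. Its log2 fold changes were −0.52 for *Eya4* (adjusted p = 0.0244 in DESeq2) and −2.49 for *Meox1* (adjusted p = 0.00129 in DESeq2). Called higher were 0 members in edgeR and 0 in DESeq2, where 12.1% and 12.5% of all genes were called higher. At an unadjusted p under 0.05 edgeR had the same 2 members lower and 0 higher, where 39.0% of all genes differed in either direction. In both called genes every KO library lay below every WT library, as it did in 21.6% of all tested genes. The filter asks for about 0.267 CPM in 3 libraries, which *Meox1* reached in 3 WT libraries and 1 KO library, so its place among the tested genes already depended on its WT level. RNA was taken from whole cultures, in which fewer cells that express a gene and less RNA per cell cannot be told apart.

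**Figure D1:**
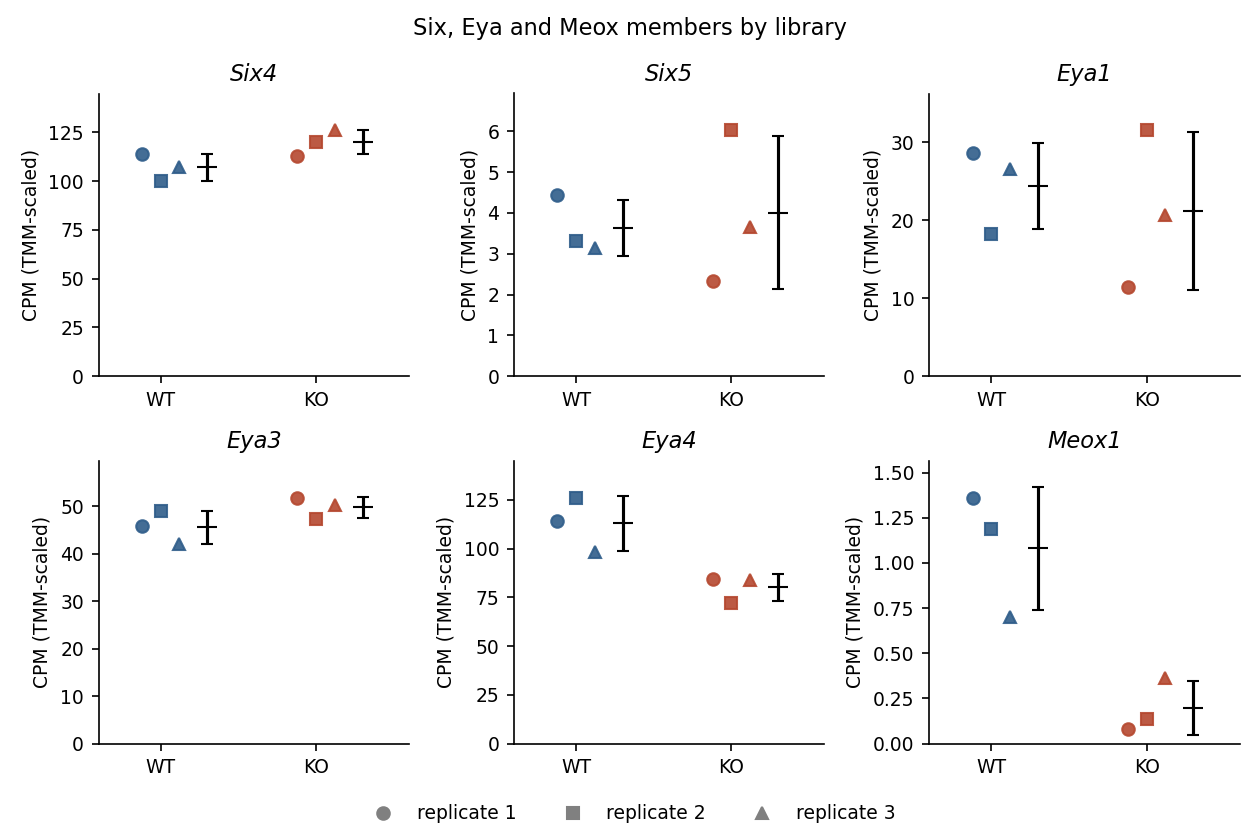
TMM-scaled CPM of the 6 tested members (vertical axis, from 0) in WT (blue) and KO (red) libraries, with 1 point per library and the mean with its SD (n = 3) in black. *Eya4* and *Meox1* separate the genotypes, and *Six4*, *Six5*, *Eya1* and *Eya3* overlap.

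*Eya4* (ENSMUSG00000010461, chromosome 10, 23104168 to 23349895, minus strand, GRCm38) encodes an Eya coactivator known for its mutation in human deafness and cardiomyopathy. It had 84.6, 71.9 and 83.7 CPM in KO1 to KO3, against 114, 126 and 98.5 in WT1 to WT3. The highest KO library was below the lowest WT library. KO averaged 80.1 ± 7.08 CPM (SD, n = 3) and WT averaged 113 ± 14.0 CPM (SD, n = 3), so KO held 70.8% of the WT level in the fitted model. The log2 fold change was −0.50 (standard error 0.14, 95% interval −0.82 to −0.18, adjusted p = 0.0380 in edgeR), and the exact two-sided permutation test gave p = 0.1, the smallest that 3 against 3 libraries allow. The call was lost without KO2, KO3, WT1, WT2 or WT3 in turn, with an adjusted p in edgeR of 0.0545 to 0.127. It held without KO1 (0.0311). Scaling by library totals only also ended the call (log2 fold change −0.39, adjusted p = 0.0838 in edgeR). So did taking replicate numbers as a block (−0.49, adjusted p = 0.0847 in edgeR).

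In TPM, which StringTie corrects for transcript length, *Eya4* had 13.4, 12.5 and 16.7 in KO1 to KO3, against 20.4, 23 and 15.9 in WT1 to WT3. KO3 lay above WT3, so the genotypes overlapped in this measure. The difference on the log2(TPM + 1) scale was −0.45 (standard error 0.18, 95% interval −0.86 to −0.03), with an adjusted p of 0.117 in limma. Of the 4 members with enough TPM to be tested, limma called 0, where 20.2% of all 11691 genes were called. At an unadjusted p under 0.05 it was 1 (*Eya4*), where 36.1% of all genes in limma lay under this level.

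*Eya3* (ENSMUSG00000028886, chromosome 4, 132638987 to 132724765, plus strand) had 51.8, 47.4 and 50.2 CPM in KO1 to KO3, against 45.8, 49.0 and 42.1 in WT1 to WT3. WT2 lay among the KO libraries. The log2 fold change was 0.13 (standard error 0.12, 95% interval −0.14 to 0.40, adjusted p = 0.454 in edgeR). The interval does not exclude a difference of up to 0.40 on the log2 scale.

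*Eya1* (ENSMUSG00000025932, chromosome 1, 14168954 to 14310235, minus strand) is required for muscle, ear and kidney development. Its 11.4, 31.5 and 20.7 CPM in KO1 to KO3 enclosed the 28.6, 18.2 and 26.5 CPM of WT1 to WT3, with KO1 the lowest and KO2 the highest of all libraries. The SD of log2 CPM was 0.74 between KO libraries and 0.35 between WT libraries. The log2 fold change was −0.21 (standard error 0.35, 95% interval −1.01 to 0.60, adjusted p = 0.695 in edgeR), and it changed sign without KO1, to 0.09. *Eya2* (ENSMUSG00000017897, chromosome 2, 165595032 to 165771727) had 1 count in each of KO2, KO3 and WT2 and 0 in the other libraries, so no difference was detectable at this depth.

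*Six4* (ENSMUSG00000034460, chromosome 12, 73099609 to 73113456, minus strand), the gene with the MEF3 letters in its promoter window, had 113, 120 and 126 CPM in KO1 to KO3, against 114, 100 and 107 in WT1 to WT3. KO2 and KO3 lay above all WT libraries, and KO1 lay just below WT1. KO averaged 120 ± 6.34 CPM (SD, n = 3) and WT averaged 107 ± 6.74 CPM (SD, n = 3). The log2 fold change of 0.16 (standard error 0.12, 95% interval −0.10 to 0.43, adjusted p = 0.328 in edgeR) did not pass the test, nor did the TPM difference of 0.15 (standard error 0.16, adjusted p = 0.533 in limma).

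*Six5* (ENSMUSG00000040841, chromosome 7, 19094594 to 19098549, plus strand) begins 0.773 kb beyond the end of *Dmpk*, the gene whose repeat expansion causes myotonic dystrophy in humans. It had 83, 263 and 150 counts in KO1 to KO3, against 153, 109 and 117 in WT1 to WT3. These are 2.32, 6.02 and 3.66 CPM in KO and 4.43, 3.32 and 3.15 in WT, with both the lowest and the highest value in KO. Its log2 fold change of 0.14 (standard error 0.37, 95% interval −0.70 to 0.99, adjusted p = 0.799 in edgeR) turned to −0.27 without KO2. *Dmpk* itself had 213 to 251 CPM in KO and 271 to 301 in WT (log2 fold change −0.28, standard error 0.13, adjusted p = 0.160 in edgeR). *Six2* (ENSMUSG00000024134, chromosome 17, 85684277 to 85688274), known as a regulator of kidney progenitors, had 0 counts in all 6 libraries. A count of 0 allows up to 3 counts, or 0.0687 to 0.0914 CPM in a library, where these limits cover counting error only.

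*Meox1* (ENSMUSG00000001493, chromosome 11, 101877510 to 101894374, minus strand) was the tested member with the largest log2 fold change in counts and the lowest TPM. It had 3, 6 and 15 counts in KO1 to KO3, against 47, 39 and 26 in WT1 to WT3, or 0.0839, 0.137 and 0.366 CPM in KO and 1.36, 1.19 and 0.701 CPM in WT. The genotypes did not overlap, and KO1 stood at the 3 counts that a library can barely show. The log2 fold change was −2.43 (standard error 0.57, 95% interval −3.76 to −1.11, adjusted p = 0.0225 in edgeR), a 5.4-fold lower level in KO, and the exact two-sided permutation test gave p = 0.1 (n = 3 against 3). The call was lost without KO2 (adjusted p = 0.0616 in edgeR), WT1 (0.0944), WT2 (0.0622) or WT3 (0.0513). It held without KO1 or KO3, and the log2 fold change lay between −3.23 and −2.10 with each library left out. Taking replicate numbers as a block also ended the call (−2.51, adjusted p = 0.0509 in edgeR). The endothelial marker *Kdr*, likewise tested through its WT level, was also lower in KO (0.0560 to 0.366 CPM, against 0.723 to 1.37 in WT). Its part in the *Meox1* values was not tested.

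The TPM of *Meox1* were 0.0188, 0.0425 and 0.125 in KO1 to KO3, against 0.427, 0.361 and 0.196 in WT1 to WT3, again without overlap. These values are under the minimum of 1 TPM in 3 libraries, so *Meox1* was not part of the main TPM comparison. *Meox2* (ENSMUSG00000036144, chromosome 12, 37108540 to 37179534), the other member of the pair, had 0 counts in every library.

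The members were ordered by level in TPM, since counts grow with transcript length. In WT the order was *Eya4* (15.9 to 23 TPM), *Eya3* (11.1 to 15.1), *Six4* (10.7 to 12.3), *Eya1* (3.28 to 5.93), *Six5* (0.619 to 0.967) and *Meox1* (0.196 to 0.427). The ranges of *Eya3* and *Six4* overlapped, and those of all other neighbours in this order did not. In KO the ranges of *Eya4* (12.5 to 16.7 TPM), *Eya3* (12.1 to 15.2) and *Six4* (10.9 to 15.4) all overlapped, followed without overlap by *Eya1* (1.81 to 5.04), *Six5* (0.470 to 1.30) and *Meox1*. No test was made between genes.

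Within the Eya family *Eya4* gave 49.1%, 41.5% and 46.0% of the summed TPM in KO1 to KO3, against 53.9%, 55.5% and 49.5% in WT1 to WT3. *Eya3* gave 41.6% to 44.3% in KO and 30.4% to 36.6% in WT. The ratio of *Eya4* to *Eya3*, chosen after the values were seen and not tested, was 1.11, 0.998 and 1.10 in KO1 to KO3, against 1.77, 1.52 and 1.43 in WT1 to WT3. *Eya4* was thus the leading family member by TPM in each WT library, and stood close to *Eya3* in each KO library. The summed TPM of the family was 27.3, 30.0 and 36.3 in KO1 to KO3, against 37.8, 41.4 and 32.1 in WT1 to WT3, which overlap. Of *Six2*, *Six4* and *Six5* together, *Six4* made up 90.5% to 95.9% of the TPM in every library.

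**Figure D2:**
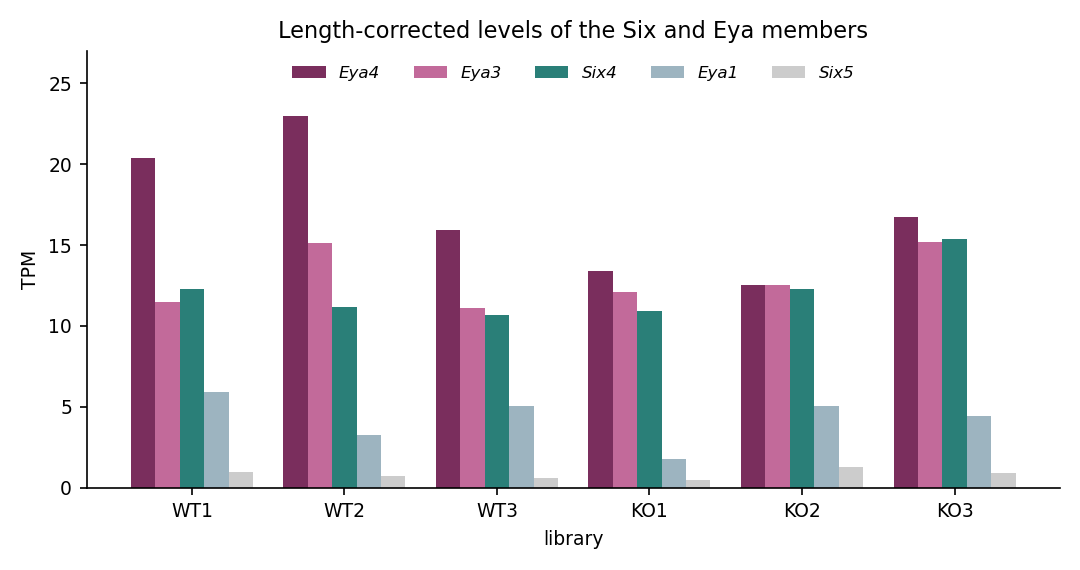
TPM (vertical axis, from 0) of 5 Six-family and Eya members in each of the 6 libraries, 1 bar per gene and library. *Eya4* stands above *Eya3* and *Six4* in WT1 to WT3 (15.9 to 23 TPM), while the 3 genes are close together in KO1 to KO3.

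The members lie on 8 chromosomes. Each was set beside the other tested genes within the same 10 Mb, relative to the median of all tested genes. Around *Eya4* (chromosome 10, 20 to 30 Mb) the median log2 fold change of 39 other genes was −0.35, with 8 called lower and 6 higher (10.6% and 12.1% over all tested genes) and 43.6% of the values above 0. The medians of KO1 to KO3 against the WT mean were −0.27, −0.24 and −0.13. With the regional median removed as an offset, the log2 fold change of *Eya4* was −0.15 (standard error 0.14, adjusted p = 0.468 in edgeR) and the call was lost. For each member the offset came from the same fold changes, its own included. It was entered as a fixed value, so its uncertainty is not part of the standard error. Its nearest tested neighbours were *Tbpl1* (log2 fold change −0.29, adjusted p = 0.217 in edgeR), 372 kb below it, and *Rps12* (−0.61, adjusted p = 0.0889), 435 kb above it.

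Around *Six4* (chromosome 12, 70 to 80 Mb) the median of 53 other genes was 0.48, and the KO libraries had medians of 0.45 to 0.47. Of these genes 22 were called higher and 4 lower (12.1% and 10.6% over all tested genes). *Six4* was 0.35 below the other genes of its region. With the regional offset its log2 fold change turned to −0.31 (standard error 0.12, adjusted p = 0.0920 in edgeR). *Mnat1*, which encodes a subunit of the CDK-activating kinase and is the nearest tested gene above *Six4* at 10.3 kb, had a log2 fold change of 0.34 (adjusted p = 0.120 in edgeR).

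*Eya2* also lies in such a stretch (chromosome 2, 160 to 170 Mb), where 89 other tested genes had a median of 0.51. Of these, 32 were called higher (12.1% over all tested genes). Its nearest tested genes rose, with a log2 fold change of 2.35 for *Slc2a10* (adjusted p = 0.0195 in edgeR), a glucose transporter gene 75.1 kb below, and 1.16 for *Zmynd8* (adjusted p = 0.00227), a chromatin reader gene 12.4 kb above, while *Eya2* stayed at 0 or 1 count per library. *Slc2a10* reached the filter's level in 3 KO libraries and 1 WT library, so it was tested through its KO level. *Meox2* lies on chromosome 12 from 30 to 40 Mb, where 27 genes had a median of 0.25. Its nearest tested gene, *Ispd*, which encodes an enzyme for the glycosylation of dystroglycan and lies 419 kb below, was not called (log2 fold change 0.50, adjusted p = 0.115 in edgeR). On the other side, at a distance of 1600 kb, lies *Etv1*, which encodes an ETS transcription factor. It fell by 4.18 on the log2 scale (0.224 to 0.664 CPM in KO and 6.16 to 10.4 in WT, adjusted p = 0.00166 in edgeR). *Etv1* reached the filter's level in 2 KO libraries and 3 WT libraries, so it was tested through its WT level.

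*Meox1* (chromosome 11, 100 to 110 Mb) had 157 other tested genes around it with a median of 0.05, and the log2 fold change of *Meox1* with the offset was −2.48 (adjusted p = 0.0232 in edgeR). The nearest tested genes, *Etv4* (0.09) and *Dusp3* (−0.37), were not called. The regional medians were −0.01 for *Eya3*, 0.06 for *Eya1*, −0.08 for *Six5* and 0.05 for *Six2*. Of the nearest tested genes on either side, *Dnajc8* (log2 fold change −0.27) and *Xkr8* (−0.26) beside *Eya3*, *Lactb2* (−0.29) and *Msc* (1.69, adjusted p = 0.146 in edgeR) beside *Eya1*, *Fbxo46* (0.09) beside *Six5* and *Camkmt* (0.61) beside *Six2* were not called. *Srbd1*, on the other side of *Six2*, rose by 0.44 (adjusted p = 0.0438 in edgeR). Listed genes that overlap a member had at most 9 counts in any library, and reads that fall on both genes were not measured.

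**Figure D3:**
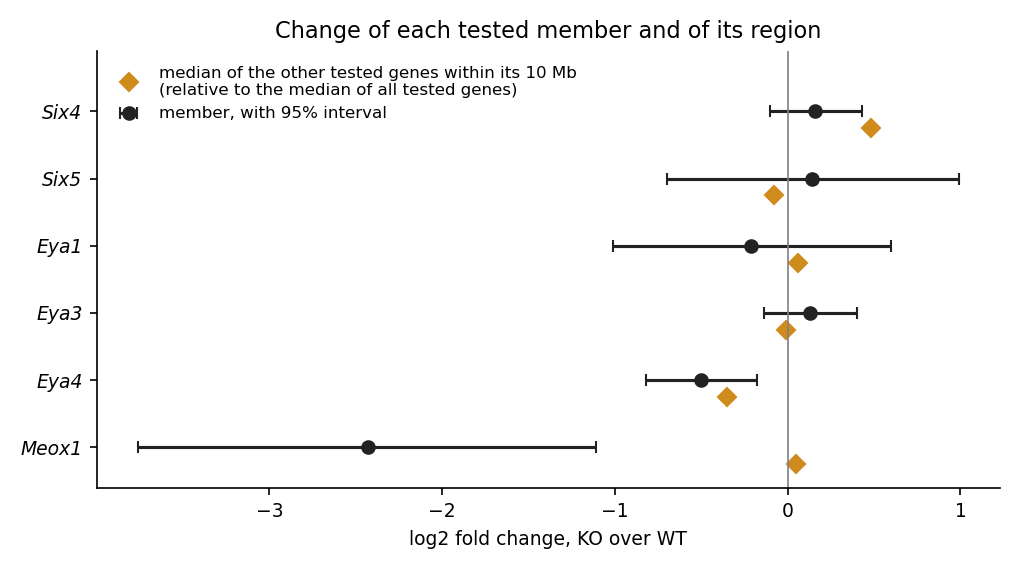
Log2 fold change of KO over WT in the edgeR model (horizontal axis) for the 6 tested members, as black points with 95% intervals, with the median of the other tested genes within the same 10 Mb (relative to all tested genes) as diamonds. The diamond of *Eya4* lies at −0.35 near its own value of −0.50, that of *Six4* at 0.48 above its own 0.16, and that of *Meox1* at 0.05 far from its own −2.43.

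The profile of each called member over the 6 libraries was compared with 5251 well-expressed genes (mean log2 CPM of at least 5), by the root mean square difference of log2 CPM after each gene's mean was removed. The 3 closest to *Eya4* were *Tnks*, the gene of the poly-ADP-ribosylating enzyme tankyrase (0.0414), *Rcn1*, of a calcium-binding protein of the endoplasmic reticulum (0.0551), and *Mafg*, of a small Maf transcription factor (0.0552), where *Eya4* itself varied by 0.279 about its mean. Their log2 fold changes were −0.51, −0.49 and −0.48, and the choice by likeness over the same libraries fixes that these lie near the value of *Eya4*. The closest to *Meox1* were *Slc8a1*, the gene of a sodium-calcium exchanger (0.308), and *Adamts5*, of a matrix protease (0.329), where *Meox1* varied by 1.28. *Slc8a1* had 12.5, 19.5 and 25.3 CPM in KO1 to KO3, against 97.4, 89.3 and 81.0 in WT1 to WT3. The choice by likeness favours this order.

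Of 11 genes whose proteins work with the Six-family and Eya factors 8 were tested, of which 3 were called higher in KO and 1 lower, where 12.1% and 10.6% of all tested genes were, and their median log2 fold change was −0.02 against 0.03 over all genes. *Pax7*, a paired-box factor of muscle stem cells, had 19.6, 29.5 and 18.4 CPM in KO1 to KO3, against 9.89, 3.99 and 9.65 in WT1 to WT3 (log2 fold change 1.52, standard error 0.36, adjusted p = 0.0223 in edgeR, lost without KO2, WT1 or WT3). *Tle4*, a Groucho corepressor, fell in KO, with 3.19, 1.17 and 1.64 CPM against 9.23, 7.31 and 7.57 (log2 fold change −2.01, standard error 0.38, adjusted p = 0.0105 in edgeR, lost without WT1). *Tle2*, another Groucho gene, had 4.87 to 9.60 CPM in KO and 2.71 to 4.18 in WT, a rise of 1.24 on the log2 scale (adjusted p = 0.0294 in edgeR).

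*Sobp*, whose protein is named for binding Six-family factors, had 12.6 to 17.7 CPM in KO and 6.22 to 10.2 in WT, a rise of 0.92 (adjusted p = 0.0285 in edgeR). The calls of *Tle2* and *Sobp* were each lost without KO2, KO3, WT1, WT2 or WT3. Partners that were not called, named by their mean CPM without regard to length, were *Aes*, a short Groucho gene (log2 fold change −0.21), *Tle3* (−0.42) and *Kdm6a*, which encodes a histone H3K27 demethylase (0.18). *Dach1*, *Dach2* and *Pax3* had at most 4 counts in any library and were not tested. The corepressor genes measured here were therefore those of the Tle family, and the Dach genes were at or near 0.

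**Figure D4:**
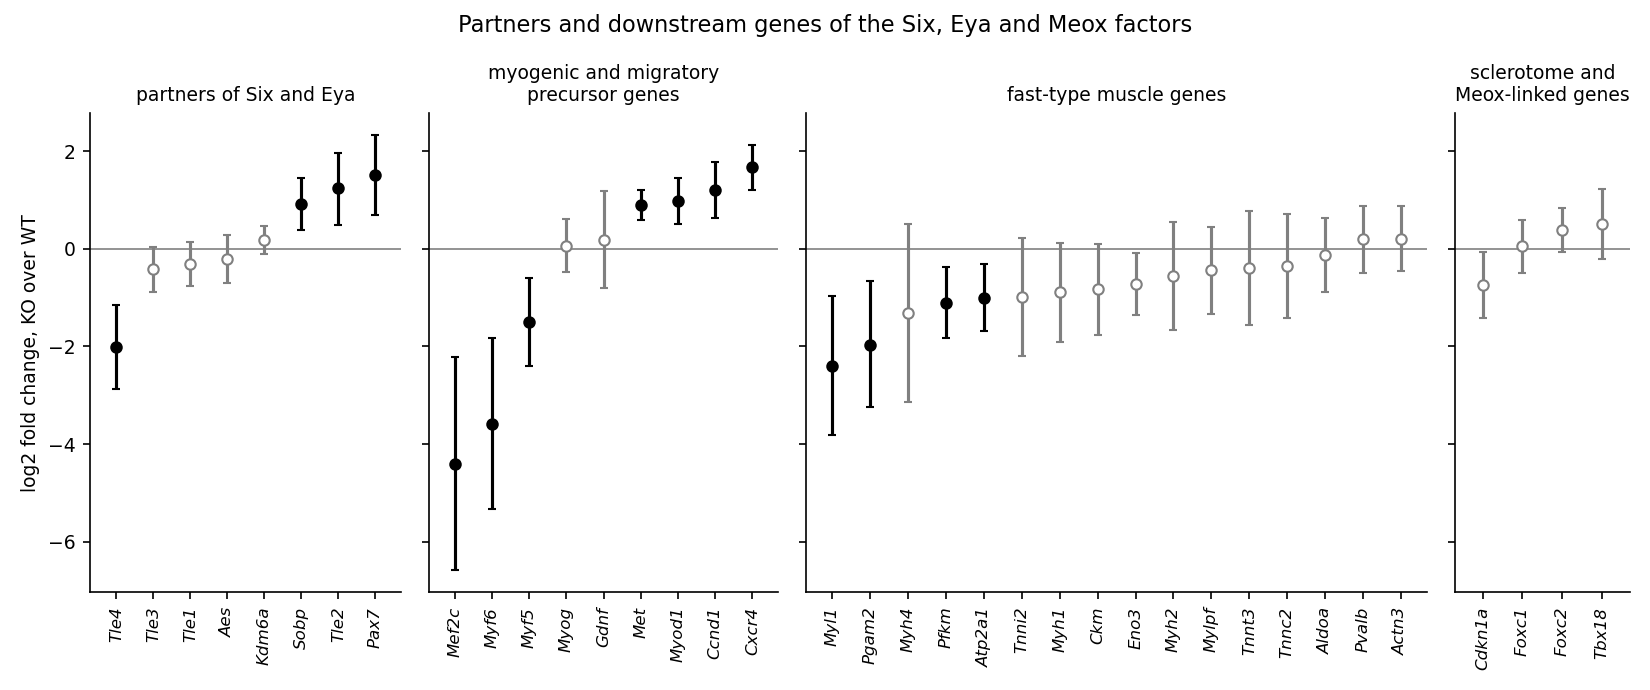
Log2 fold change of KO over WT with its 95% interval (vertical axis) for the tested genes of 4 lists of partners and downstream genes, with filled points for genes called at an adjusted p under 0.05 in edgeR. The first list has 3 genes called higher and 1 lower, the second 4 and 3, the third 0 and 4, and the fourth 0 in either direction.

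Among 10 genes of the early myogenic program and of migrating muscle precursors, which are known to act downstream of Six-family factors in the embryo, 9 were tested, 4 were called higher and 3 lower, against 12.1% and 10.6% of all tested genes. Their median log2 fold change was 0.19, against 0.03 over all genes. *Cxcr4*, the receptor that guides migrating precursors, had 54.3, 92.6 and 82.7 CPM in KO1 to KO3, against 22.7, 24.7 and 24.9 in WT1 to WT3 (log2 fold change 1.67, standard error 0.20, adjusted p = 0.00266 in edgeR). *Met*, the hepatocyte growth factor receptor gene, had 101, 122 and 100 CPM in KO and 62.3, 53.7 and 57.3 in WT (log2 fold change 0.90, standard error 0.13, adjusted p = 0.00502 in edgeR). These calls held with every library left out in turn. *Ccnd1*, the gene of cyclin D1, rose by 1.21, with 28.8 to 49.3 CPM in KO and 13.4 to 21.5 in WT (adjusted p = 0.0138 in edgeR), and *Myod1* rose by 0.99 (0.0141), both lost without WT1 or WT3.

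*Myf5*, a myogenic determination gene, had 4.92, 11.8 and 4.27 CPM in KO1 to KO3, against 16.1, 24.7 and 18.7 in WT1 to WT3 (log2 fold change −1.50, standard error 0.39, adjusted p = 0.0303 in edgeR, lost without KO3, WT1, WT2 or WT3). *Myf6*, a late factor of the same family, had 0.0488 to 0.420 CPM in KO and 1.34 to 3.18 in WT (log2 fold change −3.58, adjusted p = 0.0162 in edgeR, lost without WT1 or WT3). Its 15, 3 and 2 counts in KO1 to KO3 reached the filter's level in 1 KO library, against 3 WT libraries, so like *Meox1* it was tested through its WT level. *Mef2c*, a myogenic cofactor with the shorter MEF3 letters in its window, had 17.1, 2.34 and 1.17 CPM in KO1 to KO3, against 80.8, 162 and 189 in WT1 to WT3 (log2 fold change −4.40, adjusted p = 0.0169 in edgeR, lost without WT3). *Myog*, with the longer letters, had 1709, 1532 and 1005 CPM in KO1 to KO3, against 1464, 1355 and 1244 in WT1 to WT3. The genotypes overlapped in *Myog*, with a log2 fold change of 0.06 (95% interval −0.48 to 0.61, adjusted p = 0.863 in edgeR). *Gdnf* (0.19) was not called either, and *Lbx1*, a homeobox gene of migrating precursors, was not tested.

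Fast-type muscle genes, which need Six-family factors in adult and fetal muscle, were tested in full. Of 16 genes edgeR called 4 lower and 0 higher, where 10.6% of all tested genes were called lower. At an unadjusted p under 0.05 edgeR had 5 lower and 0 higher, where 18.5% of all genes were lower and 39.0% differed in either direction. DESeq2 called 5 lower and 0 higher, where it called 11.8% of all genes lower. In limma on TPM 5 were lower at an adjusted p under 0.05 and 10 at an unadjusted p, where 11.8% and 20.5% of all genes were lower. Their median log2 fold change was −0.78 against 0.03 over all genes. The called genes were *Myl1* (−2.39, adjusted p = 0.0297 in edgeR), a myosin light chain gene, *Pgam2* (−1.96, 0.0414) and *Pfkm* (−1.10, 0.0401) of glycolysis, and *Atp2a1* (−1.0, 0.0470), the fast calcium pump gene. *Pfkm* had 487, 318 and 232 CPM in KO1 to KO3, against 854, 516 and 852 in WT1 to WT3. Genes not called, named in the same way by their mean CPM, were *Aldoa* (−0.12), *Mylpf* (−0.44) and *Tnnt3* (−0.39), and in *Tnnt3* KO1 was the highest library, with 2381 CPM. Without KO1, 11 of the 16 were called, and without KO2, KO3, WT1 or WT3 the count was 0. The number of calls over all genes also moved in these fits, from 3361 with all libraries to 4712 without KO1. It was 2695 without KO2, 2088 without KO3, 933 without WT1 and 1288 without WT3.

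Of 9 genes linked to Meox factors or to the sclerotome, the somite part that forms vertebrae, 4 were tested and edgeR called 0, where it called 22.7% of all tested genes in either direction. *Cdkn1a*, the gene of the cell cycle inhibitor p21, had 604, 352 and 285 CPM in KO1 to KO3, against 790, 547 and 740 in WT1 to WT3. Its log2 fold change of −0.74 (95% interval −1.42 to −0.06) had an unadjusted p under 0.05 and an adjusted p of 0.104 in edgeR, and it was called by DESeq2 and by limma on TPM. *Tbx18* (0.51) and *Foxc1* (0.06) were not called. *Pax1*, *Pax9*, *Nkx3-2*, *Uncx* and *Cdkn2a* did not pass the filter.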

How the data were processed

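Total RNA from 3 KO and 3 WT C2C12 libraries was depleted of ribosomal RNA and sequenced. The authors aligned reads with STAR and deposited raw, unnormalized counts for each gene. The deposited TPM of each library came from StringTie, and entries with the same gene identifier were summed. Among the submitters' processing notes are featureCounts and the build mm9, the methods name GRCm39, and the deposited coordinates match GRCm38 gene models, so positions are on GRCm38. The strand setting is not given in the sources used here. All 6 count columns were used.

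Counts were scaled by TMM, filtered with filterByExpr and tested two-sided with edgeR 4.0.16 (R 4.3.3). TPM were tested with limma 3.58.1 on log2(TPM + 1) over genes with at least 1 TPM in at least 3 libraries. Standard errors are the log2 fold change over the root of the quasi-likelihood F. DESeq2 1.42.0, other scaling, filters, a regional offset and left-out libraries were alternatives. Steps were tested on simulated data. Single genes were also compared by exact permutation tests (SciPy 1.17.1). Libraries of a genotype differed beyond counting noise (chi-square per degree of freedom of 51.8 or more).

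The members and lists were chosen with earlier results of these data known. Named were all members, called genes of each list and the 3 others with the highest mean CPM, the nearest tested neighbours on either side, and the closest profiles. Six-family genes other than *Six2*, *Six4* and *Six5*, and 1 of the closest profiles, are not reported here.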

Additional observations from a re-analysis of the deposited data

How the results depend on the processing

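For *Eya4* the log2 fold change kept its direction in all 13 alternatives, at −0.62 to −0.42 with each library left out in turn, and the call was lost with library totals only (−0.39), with the regional offset (−0.15) and in limma on TPM (−0.45), over a range of adjusted p from 0.0244 to 0.468 in edgeR, DESeq2 and limma. For *Meox1* it was −3.23 to −2.10 with each library left out, and limma on TPM without a filter, chosen after seeing the data, gave −0.32 on a scale where the pseudocount of 1 exceeds its level (adjusted p from 0.000457 to 0.110 over the alternatives). *Six4* turned to −0.31 with the regional offset, and lay at 0.11 to 0.20 in counts with each library left out. The other sign changes came from single libraries, with ranges of −0.27 to 0.41 for *Six5*, −0.60 to 0.09 for *Eya1* in counts and −0.53 to 0.02 in TPM, and −0.02 to 0.21 for *Eya3* in TPM, where it was −0.02 without KO3 and −0.00 without WT3. Library totals moved the median of all genes from 0.03 to 0.15.

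Of the 2 members called, 1 remained with library totals, 1 with the regional offset and 0 to 2 with each library left out. The number of genes called in all lay between 933 (without WT1) and 4712 (without KO1) against 3361, and in TPM between 482 and 3134 against 2366, with 1056 without a filter on TPM. Called partners of Six-family and Eya proteins numbered 0 (without WT1) to 4 with each library left out, early myogenic and migratory genes 2 (without WT3) to 7, fast-type genes 0 to 11 (9 without a filter on low counts) and Meox-linked genes 0 to 2 (1 in DESeq2 and 1 without a filter). The causes were not tested.

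Deviations of same-numbered libraries from their genotype means correlated at 0.14, −0.12 and 0.00 across genes, and those of other pairs at −0.34 to 0.28. With 3 libraries per genotype these values cannot decide whether the replicate numbers in the titles stand for a pairing. With a replicate block edgeR called 2520 genes and 0 members, with −0.49 for *Eya4* (adjusted p = 0.0847) and −2.51 for *Meox1* (adjusted p = 0.0509). Depth limits *Six2*, *Meox2* and *Eya2*, and *Meox1* rests on 24 counts in KO and 112 in WT.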
